A study of Mus musculus with 6 samples.

Results

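The miRNAs mmu-miR-191-5p, mmu-miR-425-5p, mmu-miR-103-3p, mmu-miR-107-3p, mmu-miR-423-5p, mmu-miR-423-3p, mmu-miR-186-5p and mmu-miR-361-5p are often used as references (normalizers) when exosomal miRNAs are measured by qPCR. They were chosen by name, and all 8 were found among the 598 miRNA names measured. The data are small RNA sequencing counts from exosomes of RAW264.7, an established mouse macrophage line of wild-type genotype. M0-exo came from untreated cells cultured for 24 h, and M2-exo from cells treated over 24 h with IL-4 and IL-13, each at 20 ng/mL. Both cultures were then moved to serum-free medium, and exosomes were collected from the supernatant by ultracentrifugation and sequenced as NEBNext small RNA libraries. Each group had 3 libraries, and all 6 were labelled as batch 1. The labels do not state whether the libraries of a group came from separate cultures, so the spread between these samples may be technical. In edgeR that spread was in effect pooled over miRNAs, so its p-values and intervals say little of the spread of any 1 miRNA.

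A mature miRNA guides the Argonaute protein to messenger RNAs, mainly by pairing through its seed, the bases near its 5′ end. Cells export some miRNAs in exosomes, small vesicles that other cells take up. A qPCR measurement of such a miRNA is relative, so any change in the reference enters the result with its sign turned, and exosomes have no generally accepted housekeeping RNA.

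The mature sequences are shown because they identify what was counted and which reference miRNAs are alike enough to share reads or an assay. They come from the counted table and are equal to the RefSeq entries of the same name (GRCm38.p6) for 8 of 8 names. Capitals mark the seed, bases 2 to 8. The pair that shares a seed comes first.
mmu-miR-103-3p: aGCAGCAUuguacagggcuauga
mmu-miR-107-3p: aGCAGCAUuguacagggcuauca
The other 6 each have a seed of their own, and the pairs from 1 locus stand together.
mmu-miR-191-5p: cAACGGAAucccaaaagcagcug
mmu-miR-425-5p: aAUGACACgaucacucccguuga
mmu-miR-423-5p: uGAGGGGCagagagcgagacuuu
mmu-miR-423-3p: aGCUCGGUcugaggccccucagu
mmu-miR-186-5p: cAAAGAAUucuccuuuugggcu
mmu-miR-361-5p: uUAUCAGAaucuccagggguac
miR-103-3p and miR-107-3p differ by 1 base, G22C with miR-103-3p first and positions counted from the 5′ end, and share the other 22 bases. A read that ends before that base matches both, so the split of reads between these names is uncertain. Among the 598 names, the seed of miR-423-5p was shared with miR-6921-5p, and the other reference seeds with no name outside the 8.

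In the RefSeq annotation of GRCm38.p6, miR-191-5p lies on the plus strand of chromosome 9 from 108568325 to 108568347, and miR-425-5p on the same strand from 108568789 to 108568811. Host genes, exons and introns were taken from the GENCODE annotation. The hairpins of miR-191 and miR-425 both lie in the long noncoding RNA gene 4833445I07Rik. That of miR-425 lies in an exon, and that of miR-191 in an exon of 1 transcript and an intron of another. miR-103-3p has 2 hairpins, in introns of pantothenate kinase genes: on chromosome 11 from 35782447 to 35782469 in Pank3 and on chromosome 2 from 131288103 to 131288125 in Pank2, both on the plus strand. miR-107-3p lies in an intron of Pank1, of the same gene family, on the minus strand of chromosome 19 from 34820700 to 34820722. The arms of miR-423 lie on the minus strand of chromosome 11 in an intron of Nsrp1, the 5p arm from 77078122 to 77078144 and the 3p arm from 77078086 to 77078108. miR-186-5p lies in an intron of Zranb2 on the plus strand of chromosome 3 from 157544285 to 157544306, and miR-361-5p in an intron of Chm on the minus strand of chromosome X from 113074867 to 113074888. All host genes lie on the strand of their miRNA. The counted table carries no coordinates, and its submitters name a later build, mm39.

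With 1 entry per name, the M0-exo libraries held 1453348, 1155464 and 863194 counts, and the M2-exo libraries 937317, 860204 and 969974. A floor of 3 counts corresponds to between 2.06 and 3.49 CPM (counts scaled per 1000000) in these libraries, and all 8 reference miRNAs were above it in every library. No molecular identifiers are described, so such floors cover counting error only. The let-7 family, miR-98 included, took between 74.9% and 77.9% of each library.

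The 8 reference miRNAs together made up a smaller share of the M2-exo than of the M0-exo libraries. They took 5.09%, 5.90% and 5.61% of the counts in M0-exo replicates 1, 2 and 3, and 4.35%, 4.60% and 3.99% in M2-exo replicates 1, 2 and 3. The groups did not overlap. This held for the library total and depended on the scaling, as other scalings, tried after the values had been seen, showed. The groups of the summed level stayed apart, with M2-exo lower, with the median of ratios and the total outside let-7, but overlapped with the upper quartile and with the trimmed mean of M-values (47335, 54408 and 52054 CPM for M0-exo replicates 1 to 3, against 47717, 47418 and 44298 CPM for M2-exo). With the median of ratios the gap was narrow, 48139 CPM for M0-exo replicate 1 against 47883 CPM for M2-exo replicate 1. The share is mostly miR-191-5p, which supplied 74.6% of the reference counts, and miR-423-5p, which supplied 19.7%. Counts of this kind are relative, and more exosomes or more RNA in each exosome cannot be told apart from them.

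The reference miRNAs covered a wide range of abundance. miR-191-5p ranked 6th of the 598 by total count, with 54933, 50483 and 35838 counts across M0-exo and 31219, 29397 and 29175 in M2-exo. miR-423-5p ranked 13th, with 14668, 14162 and 10031 counts across M0-exo and 7218, 7814 and 7066 in M2-exo. By mean share of the library within a group, miR-191-5p ranked 6th in both groups, and miR-423-5p 11th in M0-exo and 15th in M2-exo. The raw counts, and ranks by total count, follow the depth of the libraries as well as the level of the miRNA. miR-103-3p ranked 39th, miR-425-5p 60th, miR-107-3p 81st and miR-361-5p 86th, with total counts of 9431, 4132, 1613 and 1454. The least abundant were miR-423-3p with 503 counts and miR-186-5p with 398, ranked 119th and 128th. For miR-103-3p the table listed both hairpins with nearly equal totals, 9431 and 9411, and the larger was used.

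Library sizes were first scaled by the trimmed mean of M-values (TMM), which assumes that most miRNAs keep their level. On this scale 1 of the 8 reference miRNAs, miR-423-5p, differed between the groups at an adjusted p below 0.05 (edgeR), and it was lower in M2-exo. Of all 598 miRNAs, 53 (8.86%) passed the same test. In a fit of the 241 miRNAs that averaged 10 counts or more, as all 8 references did, 1 of 8 passed again, against 56 of 241 (23.2%), so 1 of 8 lay between these backgrounds. By the thresholds of the study (0.5 or more in absolute log2 fold change with an unadjusted p below 0.05, edgeR), 0 of 8 passed, against 60 of 598 (10%). The unadjusted p alone was below 0.05 for 1 of 8, again miR-423-5p, and for 87 of 598 (14.5%, edgeR). By the thresholds of the study, DESeq2 passed 0 of 8 (61 of all 598), and limma, which was run on the library total and not on TMM, passed 1 (68 of 598). In edgeR these thresholds passed 2 of 8 with the library total (73 of 598), 1 with RLE (62 of 598), 1 with the total outside let-7 (62 of 598), 0 with the upper quartile (67 of 598), 1 with the GC offset (52 of 598) and between 0 and 2 without 1 library, where 51 to 74 of 561 to 584 miRNAs passed. The 2 were seen without M0-exo replicate 1, where 74 of 584 passed. Groups that did not overlap, with M2-exo lower, were seen for 1 of 8 reference miRNAs and for 57 of 598 miRNAs (9.53%).

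miR-423-5p, the 5p arm of a hairpin whose products are used as references in plasma and serum, measured 9391, 11310 and 10786 CPM in the M0-exo libraries and 8449, 9367 and 8080 CPM in M2-exo. Every M2-exo library was below every M0-exo library, although M2-exo replicate 2 came close to M0-exo replicate 1. The mean fell from 10496 ± 991 CPM (SD, n = 3) to 8632 ± 663 CPM (SD, n = 3), a log2 fold change of -0.28 (SE 0.08, 95% interval -0.45 to -0.12, adjusted p = 0.0131, edgeR). The SE comes from a spread pooled over miRNAs, while the within-group SD of log2 CPM of miR-423-5p itself was 0.13. In 4 of the 6 fits without 1 library the call was lost, with adjusted p (edgeR) between 0.0913 and 0.168, while the log2 fold change there lay between -0.27 and -0.22 and the unadjusted p (edgeR) between 0.00713 and 0.0186. The call was also lost with upper-quartile scaling (adjusted p = 0.510, edgeR), with the geometric mean of the 8 references, which includes it, as the library size (adjusted p = 0.488, edgeR) and with an offset for GC content (adjusted p = 0.581, edgeR). In these fits the log2 fold change was -0.18, -0.13 and -0.20, in that order. The log2 fold change was below 0 under all 19 alternatives, from -0.50 to -0.13, with adjusted p from 1.02e-08 to 0.581 (edgeR, DESeq2 and limma).

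Its partner arm miR-423-3p was much scarcer and more scattered. It measured 83.2, 135.0 and 54.8 CPM in the M0-exo libraries and 52.7, 61.1 and 65.2 CPM in M2-exo. The groups overlapped, and the M0-exo mean was carried by replicate 2. The log2 fold change was -0.61 (SE 0.32, 95% interval -1.24 to 0.01, adjusted p = 0.363, edgeR), an interval that reaches from a fall by more than 1 log2 unit to no change, and it ran from -0.87 to -0.19 over the 19 alternatives, nearest 0 with the GC offset. The count of the 5p arm was 113, 83.8 and 197 times that of the 3p arm in the M0-exo libraries and 160, 153 and 124 times in M2-exo, so the ratio varied more among the M0-exo libraries than between the groups.

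miR-191-5p and miR-425-5p are made from neighbouring hairpins. miR-191-5p measured 35172, 40315 and 38534 CPM in the M0-exo libraries and 36545, 35238 and 33361 CPM in M2-exo, and the groups overlapped through M0-exo replicate 1. Its log2 fold change was -0.12 (SE 0.07, 95% interval -0.25 to 0.02, adjusted p = 0.452, edgeR). Without M0-exo replicate 1 it was -0.17 (unadjusted p = 0.0131, adjusted p = 0.109, edgeR), and without M0-exo replicate 2 it was -0.07. miR-425-5p measured 699, 663 and 556 CPM in the M0-exo libraries and 720, 651 and 612 CPM in M2-exo, with each group spread over a similar range. Its log2 fold change was 0.05 (SE 0.14, 95% interval -0.23 to 0.32, adjusted p = 0.891, edgeR). miR-191-5p had between 50.3 and 69.3 times the counts of miR-425-5p in the M0-exo libraries and between 50.8 and 54.5 times in M2-exo.

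The pair with a common seed, miR-103-3p and miR-107-3p, is known for roles in insulin sensitivity and lipid metabolism. miR-103-3p measured 1435, 1483 and 1532 CPM in the M0-exo libraries and 1428, 1554 and 1592 CPM in M2-exo. Its M2-exo libraries included both the lowest and the highest of the 6, and the log2 fold change was 0.04 (SE 0.12, 95% interval -0.19 to 0.27, adjusted p = 0.890, edgeR). miR-107-3p measured 263, 241 and 253 CPM in the M0-exo libraries and 222, 281 and 276 CPM in M2-exo. Here too the M2-exo libraries lay on both sides of the M0-exo libraries, and the log2 fold change was 0.04 (SE 0.18, 95% interval -0.32 to 0.40, adjusted p = 0.929, edgeR). The ratio of miR-103-3p to miR-107-3p counts lay between 5.45 and 6.15 in the M0-exo libraries and between 5.54 and 6.42 in M2-exo.

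The remaining members come from single loci. miR-361-5p measured 245, 190 and 234 CPM in the M0-exo libraries and 241, 233 and 247 CPM in M2-exo. The groups overlapped, with M0-exo replicate 2 the lowest, and the log2 fold change was 0.11 (SE 0.19, 95% interval -0.27 to 0.48, adjusted p = 0.813, edgeR); without 1 library it ran from 0.004 (M0-exo replicate 2 left out) to 0.18 (M0-exo replicate 1 left out). miR-186-5p measured 46.7, 71.9 and 105 CPM in the M0-exo libraries and 58.5, 34.8 and 66.3 CPM in M2-exo. It was highest in M0-exo replicate 3 and lowest in M2-exo replicate 2, the groups overlapped, and the log2 fold change was -0.48 (SE 0.35, 95% interval -1.16 to 0.20, adjusted p = 0.511, edgeR). Its log2 fold change ran from -0.73 without M0-exo replicate 1 to -0.15 without M0-exo replicate 3, and was -0.82 with the GC offset (unadjusted p = 0.0155, adjusted p = 0.193, edgeR). For the 7 reference miRNAs other than miR-423-5p, a missed threshold does not show an equal level, and the widest intervals belong to the 2 with the fewest counts.

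**Figure D1:**
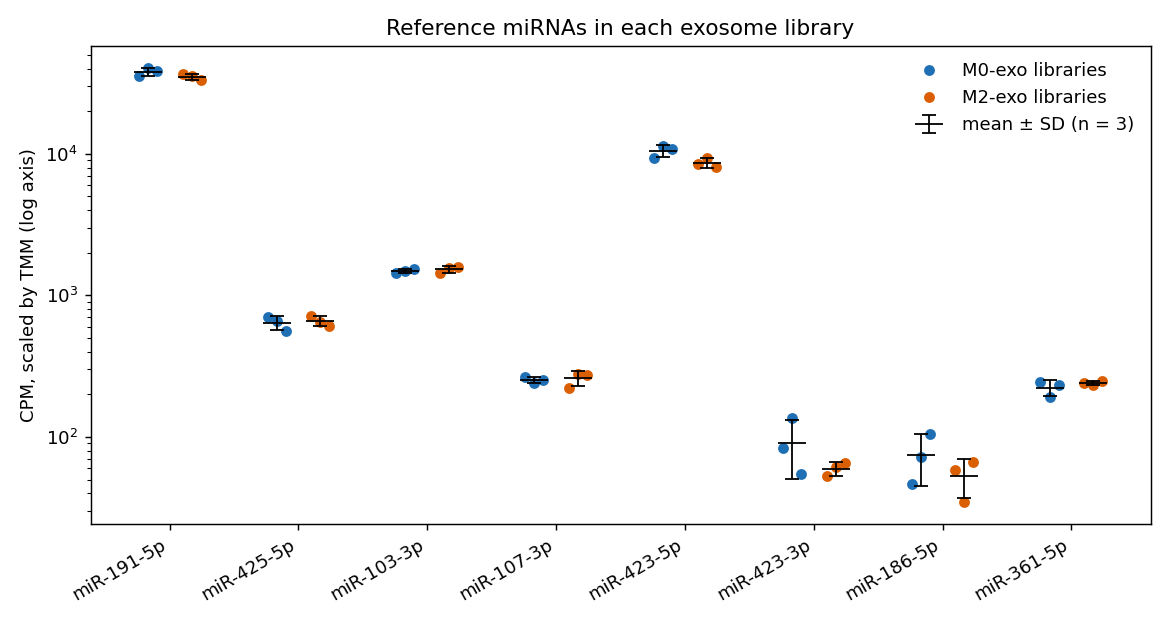
Level of each reference miRNA in each library, in CPM scaled by TMM on a log axis, with M0-exo in blue and M2-exo in orange; points are libraries, and bars give the mean and SD (n = 3). miR-191-5p is highest, at 33361 to 40315 CPM, miR-423-3p and miR-186-5p are lowest, at 34.8 to 135.0 CPM, and only for miR-423-5p do the groups not overlap.

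The direction of 4 of the 8 reference miRNAs changed with the scaling: miR-425-5p, miR-103-3p, miR-107-3p and miR-361-5p. The other 4 were below 0 with all 5 scalings. Relative to the library total alone, all 8 had a log2 fold change below 0, and 2 were lower in M2-exo at an adjusted p below 0.05 (edgeR), against 40 of 598 miRNAs (6.69%) lower. These were miR-423-5p (log2 fold change -0.50, 95% interval -0.66 to -0.34, adjusted p = 3.83e-08, edgeR) and miR-191-5p (-0.33, 95% interval -0.46 to -0.21, adjusted p = 5.63e-06, edgeR). Their SEs, 0.08 and 0.06, come from a spread pooled over miRNAs, while their own within-group SDs of log2 CPM were 0.16 and 0.10. On that scale miR-191-5p measured 37798, 43691 and 41518 CPM in the M0-exo libraries and 33307, 34175 and 30078 CPM in M2-exo, with no overlap. miR-103-3p also had groups that did not overlap there, 1542, 1607 and 1651 CPM in the M0-exo libraries and 1302, 1507 and 1435 CPM in M2-exo, with a log2 fold change of -0.18 (95% interval -0.41 to 0.05, adjusted p = 0.533, edgeR). That made 3 of 8 reference miRNAs lower in M2-exo without overlap, against 84 of 598 miRNAs (14%).

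Relative to the total outside the let-7 family, again 2 of 8 were lower in M2-exo at an adjusted p below 0.05 (edgeR), against 36 of 598 (6.02%) lower. miR-191-5p had a log2 fold change of -0.25 (adjusted p = 0.00909, edgeR) and miR-423-5p of -0.41 (adjusted p = 3.73e-05, edgeR). With the median of ratios (RLE), miR-423-5p alone of the 8 passed (-0.30, adjusted p = 0.00593, edgeR), against 30 of 598 miRNAs (5.02%) lower. With the upper quartile 0 of 8 passed in edgeR, against 45 of 598 (7.53%), and 0 of 8 had an unadjusted p below 0.05, against 86 of 598 (14.4%). miR-423-5p was still lower without overlap there, 9679, 10842 and 9826 CPM in the M0-exo libraries and 9566, 9062 and 8194 CPM in M2-exo, as 49 of 598 miRNAs (8.19%) were. In contrast, the direction of miR-103-3p was turned against the library total: with the upper quartile it measured 1479, 1422 and 1396 CPM in the M0-exo libraries and 1617, 1503 and 1614 CPM in M2-exo, higher without overlap, as 60 of 598 miRNAs (10%) were, and its 95% interval reached from -0.15 to 0.43.

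These moves belong to the scale and are shared by all miRNAs. Over all 598 miRNAs the median change (log2) was 0.03 with TMM, 0.01 with RLE, 0.13 with the upper quartile, -0.10 with the total outside let-7 and -0.18 with the library total. The median of the 8 reference miRNAs was -0.04, -0.06, 0.06, -0.17 and -0.26 in the same order. A scaling adds nearly the same amount to every log2 fold change, so the distance between these medians, -0.08 to -0.06, is nearly fixed by construction and does not measure stability.

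The distance did move when libraries were left out or the fit was changed. It ran from -0.21 without M0-exo replicate 3 to 0.04 without M2-exo replicate 3, so its sign depended on 1 library. It was -0.15 with a replicate block and -0.16 with limma on the library total. Against the 241 miRNAs that averaged 10 counts or more, the distance was -0.03 with TMM and lay between -0.10 and -0.02 without 1 library.

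**Figure D2:**
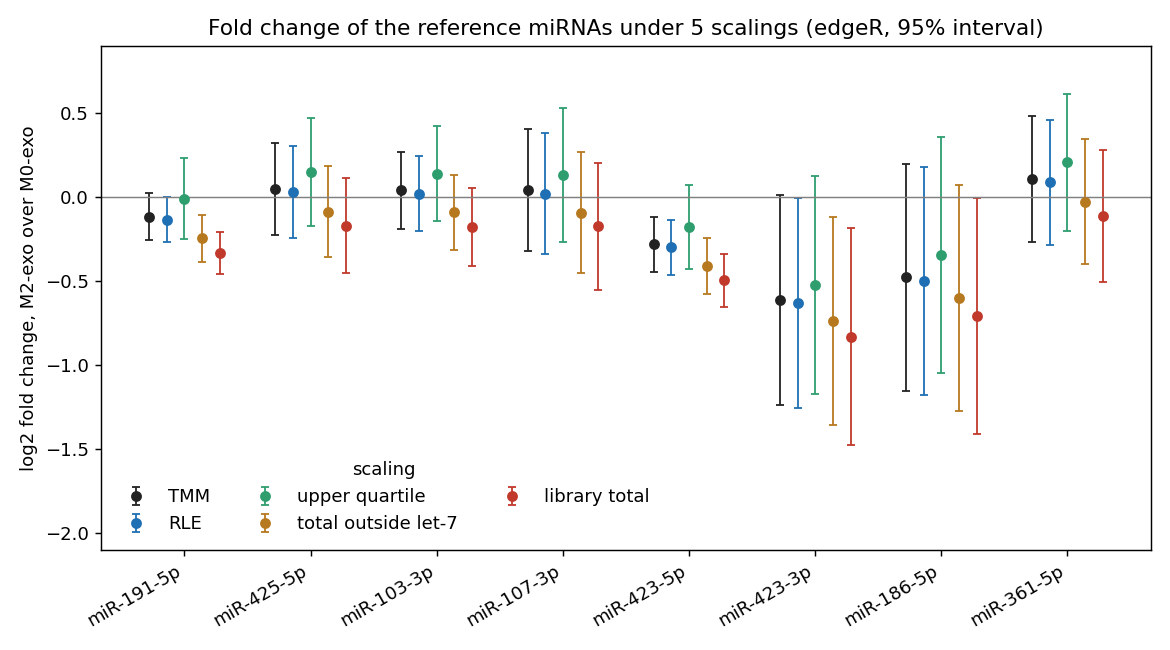
Log2 fold change of M2-exo over M0-exo for each reference miRNA (edgeR, 3 libraries a group), with a point for each of 5 scalings and bars for the 95% interval. Within each miRNA the points move down together from the upper quartile to the library total, and with TMM only the interval of miR-423-5p leaves out 0.

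The spread over the 6 libraries also ranked the reference miRNAs. Among the 110 miRNAs that averaged 100 counts or more, the median SD of log2 CPM (TMM) was 0.25. miR-103-3p had an SD of 0.06 and ranked 6th from the smallest, miR-191-5p 0.10 and 11th, and miR-107-3p 0.13 and 18th. miR-425-5p and miR-361-5p both had an SD of 0.14 and ranked 23rd and 28th, and miR-423-5p had 0.19 and ranked 44th. miR-423-3p and miR-186-5p, with means of 83.8 and 66.3 counts, were below the count minimum and had SDs of 0.51 and 0.55, where counting alone would give about 0.18 and 0.19. With the library total the order among the 110 changed: miR-103-3p ranked 27th, miR-361-5p 30th, miR-425-5p 36th, miR-107-3p 38th, miR-191-5p 48th and miR-423-5p 70th. With the upper quartile it changed the other way for 4 of them, miR-103-3p 1st, miR-191-5p 5th, miR-107-3p 7th and miR-423-5p 10th, while miR-361-5p ranked 33rd and miR-425-5p 40th.

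**Figure D3:**
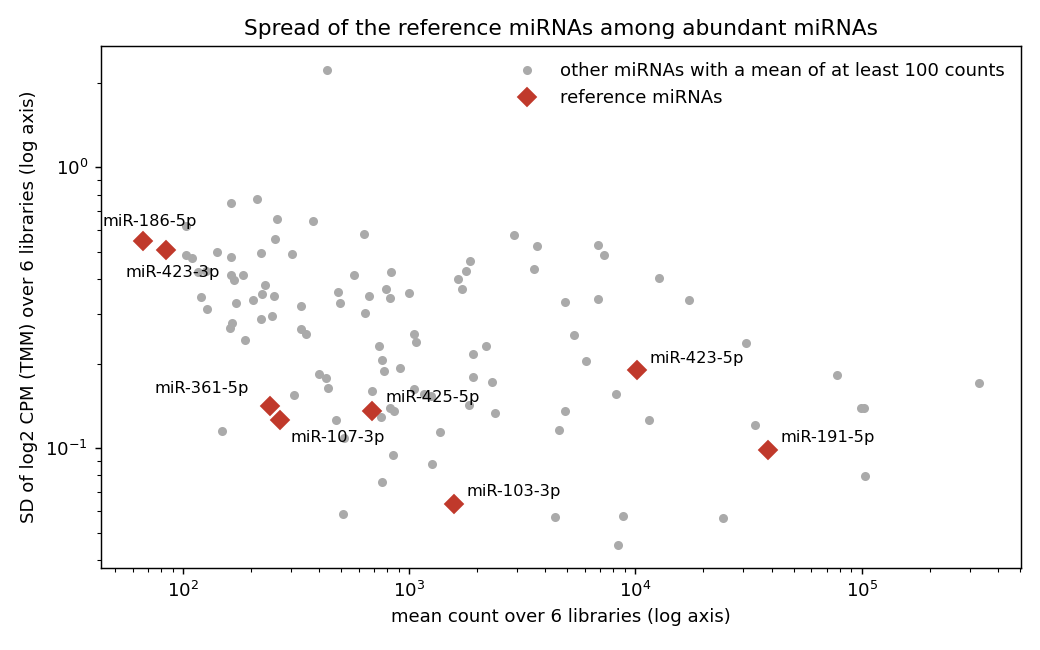
SD of log2 CPM (TMM) over the 6 libraries against the mean count, both on log axes; grey points are the other miRNAs averaging 100 counts or more, and red diamonds the reference miRNAs. miR-103-3p sits near the lower edge at 0.06, and miR-423-3p and miR-186-5p sit above 0.5 at the lowest counts.

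The ratio of 2 miRNAs within a library does not depend on the scaling. Among the 28 pairs of reference miRNAs, the SD of the log2 ratio over the 6 libraries ran from 0.09 for miR-103-3p with miR-107-3p to 0.74 for miR-423-3p with miR-186-5p, with a median of 0.29. Averaged over partners (the geNorm M value), it was lowest for miR-191-5p and miR-103-3p, both 0.26, followed by miR-107-3p with 0.29, miR-423-5p with 0.30, miR-425-5p with 0.31 and miR-361-5p with 0.32. The values of miR-423-3p (0.55) and miR-186-5p (0.59) stood apart. The value is low for miRNAs that move together, whether or not they change: the log2 ratio of miR-191-5p to miR-423-5p had an SD of 0.11.

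In 2 of the 28 pairs the groups did not overlap, and both involved miR-423-5p. Among the 8256 pairs of the 129 miRNAs at least as abundant as the scarcest reference, a background computed after the values had been seen, the groups did not overlap in 4003 (48.5%). The log2 ratio of miR-191-5p to miR-423-5p was 1.91, 1.83 and 1.84 for M0-exo replicates 1 to 3, against 2.11, 1.91 and 2.05 for M2-exo, a difference of 0.16. M2-exo replicate 2 was close to M0-exo replicate 1, 1.912 against 1.905. The log2 ratio of miR-103-3p to miR-423-5p was -2.71, -2.93 and -2.82 for M0-exo replicates 1 to 3, against -2.56, -2.59 and -2.34 for M2-exo, a difference of 0.32. Both had an exact two-sided permutation p of 0.1, the smallest that 3 against 3 libraries allow, and an adjusted p of 0.659 over the 28 pairs (exact permutation test, Benjamini-Hochberg), so no pair could pass 0.05.

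**Figure D4:**
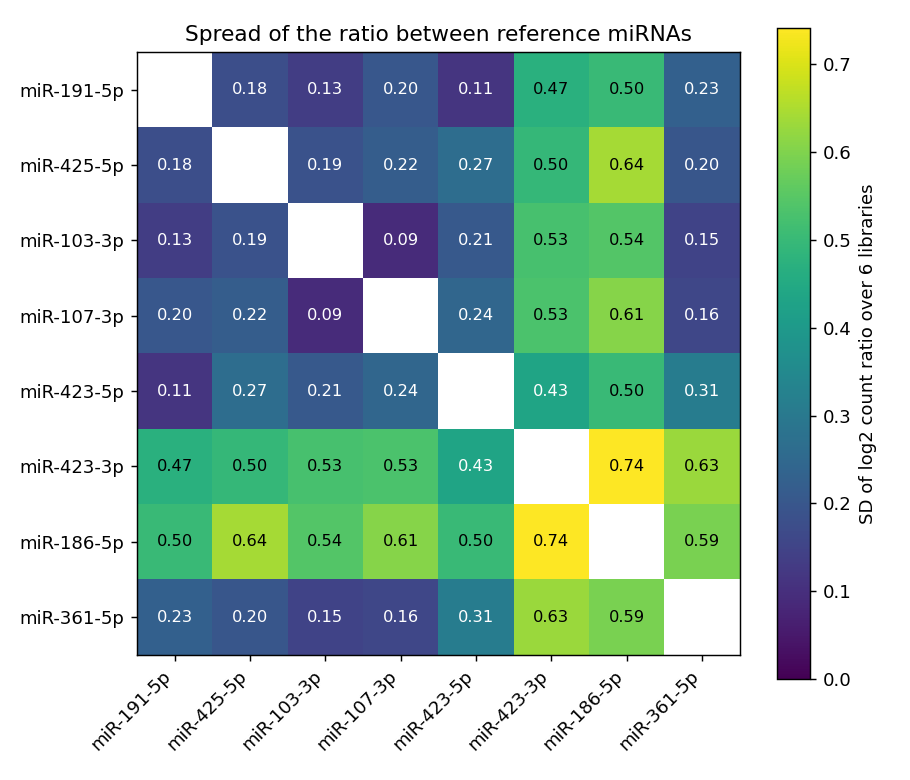
SD over the 6 libraries of the log2 count ratio for each of the 28 pairs of reference miRNAs, as colour and number. The rows of miR-423-3p and miR-186-5p hold all values above 0.4, and the other 6 miRNAs lie between 0.09 and 0.31 from one another.

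The choice of reference also set how many miRNAs differed and in which direction. With TMM, 25 of the 53 miRNAs at an adjusted p below 0.05 were higher in M2-exo (47.2%), and with the library total 9 of 49 (18.4%). When the geometric mean of the 8 reference miRNAs was used as the library size, 63 passed, 41 of them higher (65.1%, edgeR).

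Single reference miRNAs as the library size were tried after the values had been seen. miR-423-5p alone gave 50 higher of 63 (79.4%) and miR-191-5p alone 36 higher of 57 (63.2%). miR-103-3p alone gave 15 of 43 (34.9%), miR-107-3p 9 of 31 (29.0%), miR-425-5p 9 of 32 (28.1%) and miR-361-5p 6 of 32 (18.8%). The share of higher calls thus ran from 18.8% to 79.4% over these 6. With miR-423-3p or miR-186-5p alone, only miR-122-5p passed. A geometric mean of miR-103-3p, miR-107-3p, miR-361-5p and miR-425-5p, picked after their fold changes had been seen, gave 13 higher of 41 (31.7%), and nothing is supported with it.

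**Figure D5:**
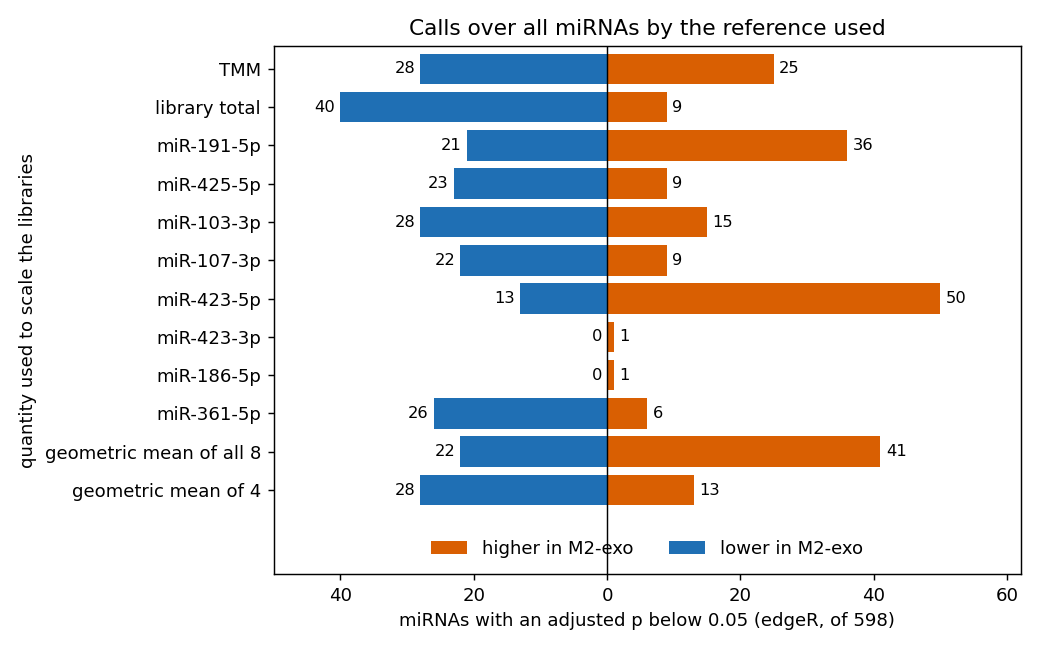
Number of miRNAs at an adjusted p below 0.05 (edgeR, of 598), higher in M2-exo to the right in orange and lower to the left in blue, by the quantity used to scale the libraries. The balance moves from 9 higher and 40 lower with the library total to 50 higher and 13 lower with miR-423-5p.

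A relative quantity as in qPCR was computed for miR-223-3p, a miRNA of myeloid cells and a candidate of the study. It was picked from earlier results of these data, because it alone among the candidates had more than 3 counts in every library. Its counts were low: 24, 21 and 8 for M0-exo replicates 1 to 3, against 41, 38 and 28 for M2-exo. Relative to the geometric mean of the 8 reference miRNAs, its log2 level was -5.58, -5.61 and -6.48 for M0-exo replicates 1 to 3, against -3.85, -3.90 and -4.50 for M2-exo. Every M2-exo library was above every M0-exo library, a difference of 1.80 on the log2 scale, or 3.49-fold (exact two-sided permutation p = 0.1, the smallest possible). With 1 reference alone the difference ran from 1.54 (2.92-fold) with miR-361-5p to 2.18 (4.53-fold) with miR-423-3p, and with the library total it was 1.44 (2.72-fold). The groups did not overlap with any of the 8 references. In edgeR, however, whether miR-223-3p passed an adjusted p of 0.05 depended on the library size used. The adjusted p (edgeR) was 0.0583 with TMM, 0.0258 with the geometric mean of the 8, 0.0384 with miR-191-5p alone and 0.0129 with miR-423-5p alone, and lay between 0.0754 and 0.609 with the other 6 alone.

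The miRNAs whose counts followed the reference geometric mean most closely were miR-674-5p, miR-17-3p, miR-709, miR-320-3p and miR-342-3p. The SD of their log2 ratio to it over the 6 libraries was between 0.06 and 0.10, the smallest of 104 other miRNAs averaging 100 counts or more. Of the reference miRNAs themselves, which are part of that mean, miR-191-5p had the smallest SD, 0.07. miR-674-5p measured 23608 ± 1278 CPM in the M0-exo libraries and 22843 ± 194 CPM in M2-exo (SD, n = 3 each), with a log2 fold change of -0.05 (adjusted p = 0.775, edgeR, TMM) that became -0.27 (adjusted p = 0.00219, edgeR) with the library total. The 5 miRNAs with the smallest SD of log2 CPM (TMM) were let-7e-5p, miR-674-5p, miR-10a-5p, miR-93-5p and miR-342-3p, with SDs between 0.05 and 0.06, against 0.06 for miR-103-3p.

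Other miRNAs in use as references were read beside the 8, without a test between the lists. Of the 14 listed, 6 were higher in M2-exo at an adjusted p below 0.05 with TMM and 0 lower (edgeR, with miR-320-3p nearest at -0.24 and an adjusted p of 0.0583), against 25 higher and 28 lower of all 598. The median change of the 14 was 0.23 (log2) against -0.04 for the 8 and 0.03 for all miRNAs. The 6 were let-7a-5p, let-7g-5p, let-7i-5p, miR-16-5p, miR-24-3p and miR-26a-5p. miR-16-5p, a frequent reference in blood and exosome work, rose from 13578 ± 479 CPM to 20549 ± 1883 CPM (SD, n = 3 each), a log2 fold change of 0.60 (SE 0.08, adjusted p = 1.28e-12, edgeR). With the library total, 2 of the 14 were higher, miR-16-5p (0.38) and miR-26a-5p (0.35), and 2 lower, miR-92a-3p (-0.35) and miR-320-3p (-0.46). Of all 598 miRNAs, 9 were higher and 40 lower on that scale at the same threshold (edgeR). The median of the 14 was then 0.01, with 7 of 14 below 0, against -0.26 for the 8, all below 0, and -0.18 for all miRNAs.

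Of 7 other arms of the reference hairpins, 4 were in the table. miR-425-3p had 413, 407 and 405 counts across M0-exo and 288, 237 and 240 in M2-exo, and a log2 fold change of -0.19 (SE 0.17, adjusted p = 0.532, edgeR, TMM). miR-191-3p, miR-103-2-5p and miR-361-3p had at most 15 counts in any library, and each was at 0 in at least 3 of the 6.

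Markers of cell types were read beside these values. All 6 myeloid miRNAs were in the table, and together they measured 1839, 1414 and 1353 CPM in the M0-exo libraries and 1274, 1425 and 1559 CPM in M2-exo, with miR-155-5p the most abundant in each M0-exo library and miR-142a-3p in each M2-exo library. At an adjusted p below 0.05 (edgeR, TMM), miR-155-5p was lower in M2-exo (log2 fold change -1.04) and miR-142a-3p (0.45) and miR-21a-5p (0.55) were higher, so their changes had opposite directions. Of 2 liver miRNAs, miR-122-5p measured 40.3, 47.1 and 54.8 CPM in the M0-exo libraries and 160, 128 and 2497 CPM in M2-exo, so that M2-exo replicate 3 stood apart, and miR-192-5p had at most 5 counts in any library. The serum or red cell list (3 of 4 in the table, miR-486a-5p the most abundant) summed to between 80.7 and 110 CPM in the M0-exo libraries and between 81.5 and 133 CPM in M2-exo. The stromal list (2 of 4, miR-143-3p the most abundant) summed to between 18.4 and 23.7 CPM in the M0-exo libraries and between 31.2 and 74.3 CPM in M2-exo, and the epithelial list (1 of 3, miR-200c-3p) to between 29.0 and 63.1 CPM over the 6 libraries. The part of these markers in the values of the reference miRNAs was not tested; without M2-exo replicate 3 the log2 fold change of miR-423-5p was -0.24 (adjusted p = 0.104, edgeR).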

How the data were processed

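Small RNA was measured in 3 M0-exo and 3 M2-exo libraries, grouped by the labels. In the table deposited by the authors, each mature miRNA and hairpin has raw counts and RPM values, and RPM equals the count over the sum of its library's 638 entries to within 0.005. The build is mm39 per the submitters' processing notes; the aligner, the counting tool and the filters are not given in the sources used here. The tests used the counts.

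Of several entries under 1 name (35 names) that with the largest sum was used, giving 598 names and between 860204 and 1453348 counts per library. M2-exo was compared with M0-exo by edgeR 4.0.16 in R 4.3.3 (TMM, estimateDisp, glmQLFit and glmQLFTest with defaults) over all 598 names with Benjamini-Hochberg adjustment. Intervals are 95% intervals of the quasi-likelihood fit, whose variance was in effect shared across miRNAs. With TMM, miR-122-5p, at 160, 128 and 2497 CPM in the M2-exo libraries, had an SE of 0.18. DESeq2 1.42.0 and limma 3.58.1 with trend on log2(CPM + 1), scaled by the library total, were alternatives, beside other scalings, a mean of at least 10 counts, a robust variance prior, summed entries, miR-103-3p and miR-107-3p as 1 feature, a GC offset, a replicate block and leaving out each library. Ratios of counts were tested by exact permutation over the libraries (20 arrangements) with scipy 1.17.1 in Python 3.11.15, and figures were drawn with matplotlib 3.10.9. The steps were tested on simulated data. Replicates differed beyond counting noise in every pair (chi-square per degree of freedom from 7.28 to 29.6).

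The members and lists were chosen with earlier results of these data known. The named miRNAs were the 8 references, the other arms of their hairpins, 14 other reference miRNAs, the 5 closest to the geometric mean of the 8, the 5 with the smallest SD, miR-223-3p and the cell type markers. miR-6921-5p was named because it shares a seed, and miR-122-5p as the only call with 2 of the single references. Using single reference miRNAs, or 4 of them, as the library size was added after seeing the data, as were the other scalings of their summed level and the background of pairs. U6, which the study used in qPCR, and its qPCR values were not analysed here.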

Additional observations from a re-analysis of the deposited data

How the results depend on the processing

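Over 19 alternatives and 8 reference miRNAs, 121 of 152 log2 fold changes kept their direction and their side of the threshold, 21 changed sign, 3 came to pass the threshold and 7 no longer passed it. Where miR-103-3p and miR-107-3p were summed, their shared value was counted under both names. The 7 were all miR-423-5p. The 3 were miR-191-5p with the library total, the total outside let-7 and limma. The limma fit used the library total, so it changed the tool and the scaling at once and is no separate evidence on the scaling. The causes were not tested, except that a scaling moves all miRNAs together by its construction.

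miR-425-5p, miR-103-3p, miR-107-3p and miR-361-5p turned below 0 with the library total (-0.17, -0.18, -0.18 and -0.11), the total outside let-7 (-0.0865, -0.0915, -0.0940 and -0.0289), limma on log2(CPM + 1) of the library total (-0.17, -0.18, -0.18 and -0.10) and the GC offset (-0.0748, -0.0971, -0.0926 and -0.0738). miR-191-5p turned to 0.0292 with the geometric mean of the references, which includes it. Without 1 library, miR-425-5p ran from -0.0434 to 0.1163, miR-107-3p from -0.0316 to 0.1322 and miR-103-3p from 0.0074 to 0.0778.

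The count of reference miRNAs at an adjusted p below 0.05 was 1 with TMM, 2 with the library total, the total outside let-7 and limma (each with 49 of all 598), and 0 with the upper quartile, the geometric mean of the references and the GC offset; it was 0 to 1 without 1 library. The geometric mean is taken from these same 8, so the 0 with it was largely fixed by construction. The unadjusted p was below 0.05 for 0, 0 and 1 of the 8 where the count was 0, against 86, 98 and 70 of all 598. The median log2 fold change of the references was -0.26 with the library total, 0.0609 with the upper quartile, -0.17 outside let-7, 0.10 with their geometric mean, -0.26 with limma, -0.12 with miR-103-3p and miR-107-3p summed and -0.12 with the GC offset, and from -0.0888 to -0.0342 without 1 library. All miRNAs at an adjusted p below 0.05 numbered 53 with TMM, 25 with the GC offset and 33 to 59 without 1 library, the lowest without M0-exo replicate 2. With 1 reference alone as the library size, added after seeing the data, they numbered 32 with miR-425-5p, 31 with miR-107-3p, 32 with miR-361-5p and 1 each with miR-423-3p and miR-186-5p.

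Same-numbered libraries showed no shared deviation (correlations -0.04, 0.02 and -0.05 over 241 miRNAs). These values cannot show whether such libraries were prepared as pairs, and the labels do not say. With a replicate block, 52 miRNAs and 1 reference miRNA passed, and the median of the references was -0.04. The difference in miR-223-3p was above 0 with each of the 8 references, with the library total, with counts + 1 (1.74) and without 1 library (1.51 to 2.01), but its adjusted p in edgeR crossed 0.05 with the reference, as the report gives. miR-423-3p and miR-186-5p had the fewest counts, 503 and 398 in all, and their spread exceeded counting error. The summed level of the references was lower in M2-exo without overlap with the library total, RLE and the total outside let-7, and the groups overlapped with TMM and the upper quartile; these scalings of the sum were added after seeing the data.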
